A study of Mus musculus with 2 samples.

Results

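The replication-dependent histone genes of the mouse were read here as the protein-coding genes of the GENCODE M21 annotation whose symbols begin with Hist1h, Hist2h, Hist3h or Hist4h. The rule named 67 genes, and 64 of them had a row among the 43346 mouse gene rows of the deposited tables. The other 3 (Hist1h2bh, Hist1h2bm and Hist2h2bb) were not analysed here. By class the 64 genes comprised 6 H1, 18 H2a, 15 H2b, 12 H3 and 13 H4 genes. By cluster, 52 lay in HIST1 on chromosome 13, 9 in HIST2 on chromosome 3 and 2 in HIST3 on chromosome 11, while Hist4h4 stood alone on chromosome 6. The rule itself uses no measured value, but it was chosen with earlier results of these data known.

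The data were total RNA-seq of whole limb from strain B6NCrl embryos at embryonic day 15.5, both sexes pooled, with no treatment or mutation. There was 1 group with 2 libraries. Replicate 1 came from the pooled limbs of 78 embryos and replicate 2 from those of 62, and each library started from 10 ng of RNA longer than 200 nt. The series holds no second condition, so values are given for each library with the spread between the 2 pools, and no p-value was computed.

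The 2 libraries held 35104684 and 41757266 expected counts. All 6 limb mesenchyme markers and all 5 cartilage markers were present at a mean of at least 14.03 TPM (a level already divided by transcript length and scaled to a fixed total in each library). The 5 testis germ cell markers stayed at or under a mean of 0.49 TPM. The pools were not alike in tissue content. The 5 skeletal muscle markers summed to 3899 TPM in replicate 1 and 1098 in replicate 2, and all 5 were higher in replicate 1. The 5 liver markers summed to 9.62 and 49.2 TPM, and all 4 with a mean of at least 1 TPM were higher in replicate 2. In whole tissue, fewer cells of a type and less RNA per cell cannot be told apart.

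Histones package DNA: pairs of H2A, H2B, H3 and H4 form the nucleosome core, and H1 binds the linker between nucleosomes. The replication-dependent genes supply the bulk of this protein while DNA is being copied. They are small, mostly lack introns, lie in clusters as many near-identical copies, and their mRNAs normally end in a short conserved stem-loop rather than a poly(A) tail. The stem-loop is bound by Slbp, and the pre-mRNA is cut after it by a complex that includes the U7 small nuclear ribonucleoprotein. Replacement variants such as the H3f3a and H3f3b products are made throughout the cell cycle, from polyadenylated mRNAs.

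The stem-loop is shown first because it is the end of the mRNA on which this family is usually recognised. It was searched for after the stop codon in 1 GENCODE M21 transcript of each gene (GRCm38), as 16 nt of a fixed pattern on the sense strand. The pattern was found in 40 of the 64 genes, against 3 of 21884 other protein-coding genes (0.0137%), whose longest transcripts were searched from end to end. Of the 24 genes without it, 12 were annotated with nothing after the stop codon and 2 more with at most 2 nt, so that a stem-loop could not be seen in their models. The commonest form was found in 24 genes. Below, the 16-nt stem-loop is in capitals after the 14 nt before it, for the genes whose levels are described next and for contrasting copies.
Hist1h2ap: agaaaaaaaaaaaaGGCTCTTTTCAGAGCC
Hist1h2ao: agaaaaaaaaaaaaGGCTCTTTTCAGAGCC
Hist1h2ae: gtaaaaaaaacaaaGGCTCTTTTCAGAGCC
Hist1h2ag: tgatcgccaacaaaGGCTCTTTTCAGAGCC
Hist1h4d: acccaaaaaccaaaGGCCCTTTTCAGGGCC
Hist2h4: cccccatccctaacGGCCCTTTTTAGGGCC
Hist1h3b: aactggaacccaaaGGCTCTTTTCAGAGCC
Hist3h2ba: gcccccaacccaaaGGCTCTTTTCAGAGCC

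In Hist1h2ap and Hist1h2ao a run of 12 adenines stood directly before the stem-loop. Hist1h2ae had a run of 8 nt between stop codon and stem-loop, and the median over the 40 genes was 3 nt. A run over 5 nt was found in 4 of the 40, these 3 and Hist1h3c. AATAAA, the hexamer of ordinary poly(A) signals, was found on the sense strand in the last 50 nt of 11 of the 64 annotated transcripts (17.2%). Over the other protein-coding genes, by their longest transcripts, it was found in 56.5%. AATAAA was present in 6 of the 12 genes outside HIST1 and in 5 of the 52 within it. In the 14 models with at most 2 nt after the stop codon, a hexamer after that codon could not be seen. A match describes letters only. Whether these transcripts were polyadenylated was not measured.

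Together the 64 genes summed to 3088 TPM in replicate 1 and 3625 in replicate 2, or 3357 ± 380 TPM (SD, n = 2). Their expected counts summed to 28603 and 40409, or 0.0891 ± 0.0108% of a library (SD, n = 2). H2a took 79.3 ± 1.20% of the summed TPM (SD, n = 2), H4 9.40 ± 1.17%, H3 4.63 ± 0.595%, H2b 4.06 ± 0.178% and H1 2.56 ± 0.386%. A single row, that of Hist1h2ap, was listed with 70.1 ± 1.69% of the total. Without Hist1h2ap and its near-identical copy Hist1h2ao, the other 62 genes summed to 885 and 1126 TPM. H4 then led with 31.4 ± 2.14%, beside H2a with 30.8 ± 0.0998%, H3 with 15.5 ± 1.11%, H2b with 13.7 ± 1.37% and H1 with 8.64 ± 1.78%. H4 was below H2a in replicate 1 and above it in replicate 2, so the order of those classes was not settled by the libraries. By counts, not divided by length, H2a held 31.5 ± 0.200% and H4 22.2 ± 3.04% of those 62 genes.

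**Figure D1:**
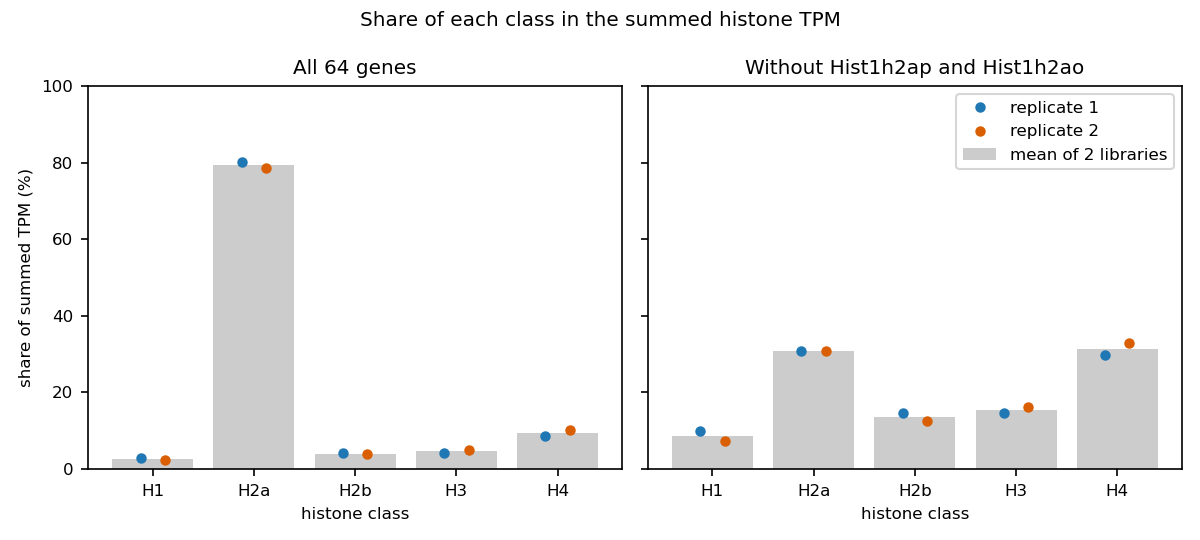
Share of each histone class in the summed histone TPM (vertical axis, percent), for all 64 genes (left) and without Hist1h2ap and Hist1h2ao (right). Bars are the mean of the 2 libraries and points are the libraries. The H2a bar stands at 79.3% on the left and 30.8% on the right, beside an H4 bar of 31.4%.

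Levels differed widely within each class. Of the 64 genes, 49 had a mean of at least 1 TPM, 19 of at least 10 and 3 of at least 100. The median over all 64 was 3.18 TPM in replicate 1 and 4.58 in replicate 2. The leading gene held 88.3 ± 0.784% of the TPM of H2a (Hist1h2ap), 84.5 ± 0.123% of H4 (Hist1h4d), 58.8 ± 10.4% of H2b (Hist1h2bc), 48.6 ± 2.18% of H3 (Hist1h3i) and 45.5 ± 1.90% of H1 (Hist1h1e). For H1 the leader rests on division by length: Hist1h1e was measured over 748 nt (1930 nt in M21), and by counts Hist1h1c led with 46.8% of the class against 33.8% for Hist1h1e. A single row thus held most of the listed TPM in H2a, H4 and H2b in both libraries. For H2a this cannot be given to a single copy, because reads of Hist1h2ap and Hist1h2ao can hardly be told apart.

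**Figure D2:**
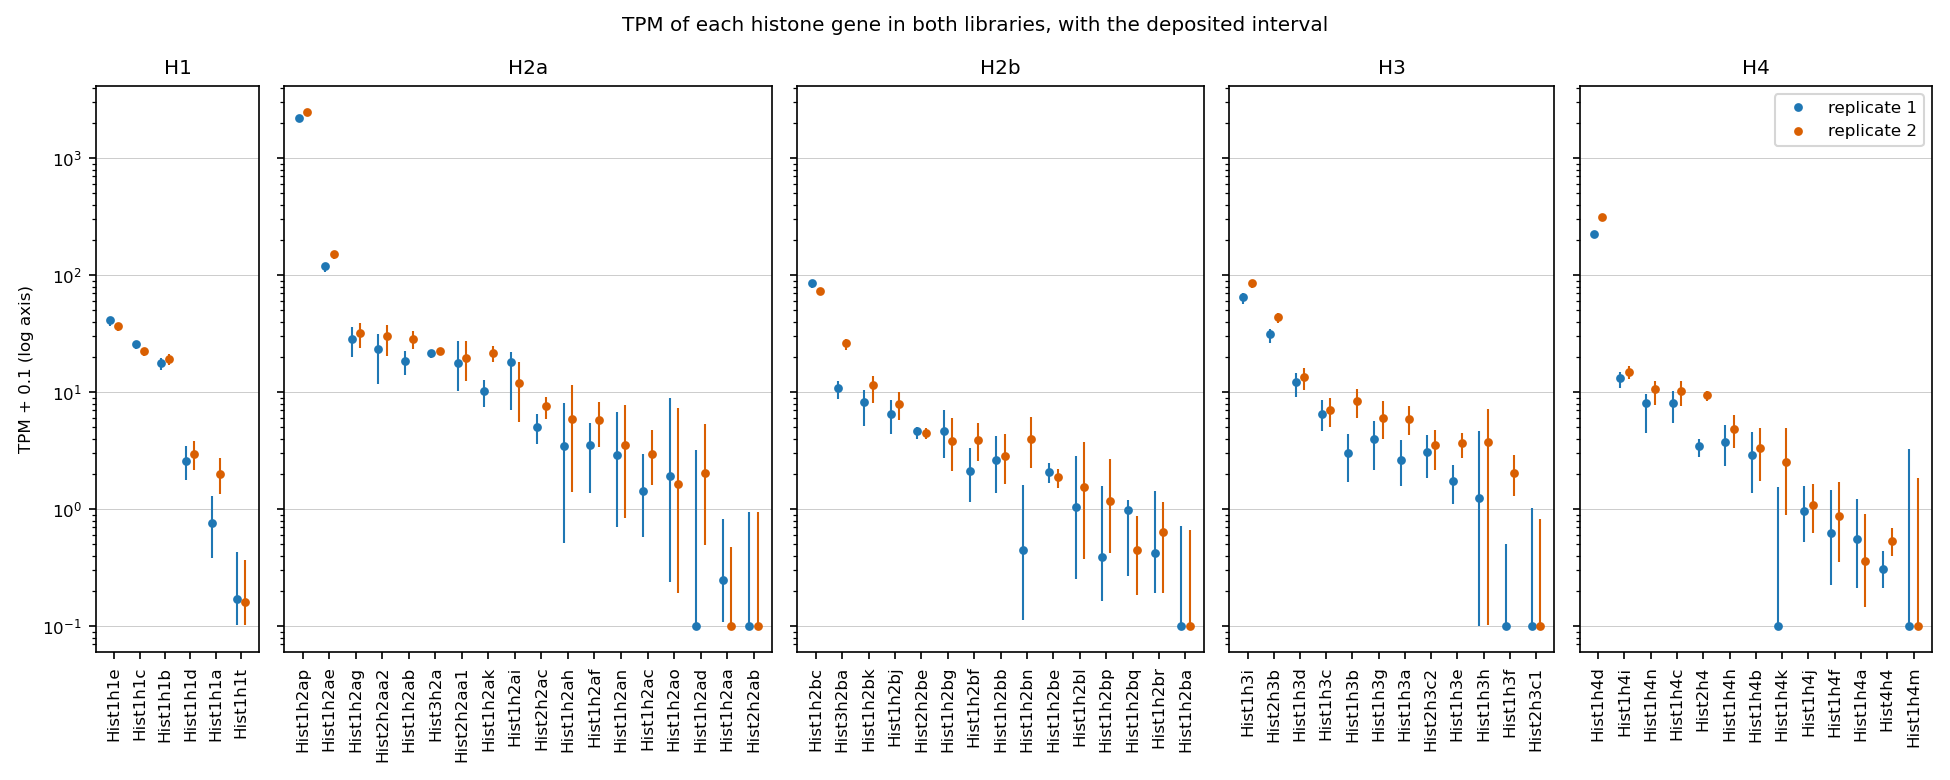
TPM + 0.1 of each of the 64 histone genes on a log axis, by class and ordered by mean within a class. Points are the TPM of each library and lines the deposited interval of the TPM estimate. Hist1h2ap stands near 2350 TPM, Hist1h4d near 268 and Hist1h2ae near 136, and most others lie below 50 with intervals that lengthen toward the low end.

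Hist1h2ap (ENSMUSG00000094777.2, chr13:21833026-21833507, minus strand, GRCm38), a single-exon gene for a canonical H2A protein, stood at 2201 TPM in replicate 1 and 2498 in replicate 2, from 18810 and 26086 expected counts. It ranked 30 among all mouse gene rows by mean TPM and 155 by counts, not divided by length. Hist1h2ao (ENSMUSG00000094248.1, chr13:21810465-21810944, plus strand) stood at 1.82 and 1.55 TPM. These 2 transcripts are 482 and 480 nt long and share 452 nt without a mismatch. They differ only in where the annotation ends them: Hist1h2ap has 30 nt more at its start and Hist1h2ao 28 nt more at its end. Of the 100-nt windows of Hist1h2ap, 92.2% also occur in Hist1h2ao and 68.7% in Hist1h2ag. Reads from the shared stretch cannot be assigned to either gene by sequence, so the pair is best read as a sum of 2203 and 2500 TPM, or 2352 ± 210 TPM (SD, n = 2).

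The deposited TPM of Hist1h2ap lay above its own deposited interval in both libraries, at 2201 against 2109 to 2175 and at 2498 against 2412 to 2476. The interval describes a posterior estimate rather than the TPM column. Among the 49 histone genes with a mean of at least 1 TPM, 2 had a TPM outside their interval in a library (4.08%), against 5.67% of all mouse genes at that level.

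After Hist1h2ap came Hist1h2ae, another gene for the same H2A protein, with 119 TPM in replicate 1 and 153 in replicate 2. Hist1h2ag, also a gene for that protein, had 28.6 and 31.8 TPM. Another 6 H2a genes lay between a mean of 15.0 and 26.7 TPM. At the low end, Hist1h2aa, an H2A gene known from testis, was listed at 0.15 and 0 TPM, from 1 and 0 counts. Hist2h2ab was listed at 0 in both.

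Among H2b genes, Hist1h2bc (chr13:23684199-23692908, plus strand) led with 85.6 TPM in replicate 1 and 73.5 in replicate 2, and its intervals of 78.4 to 88.0 and 67.6 to 76.0 did not overlap. Hist3h2ba, outside HIST1, followed with 10.7 and 26.1 TPM, and Hist1h2bk with 8.20 and 11.5 TPM. Hist1h2br, the H2b partner of Hist1h2ap, had 0.32 and 0.54 TPM. Hist1h2ba, a testis H2B gene, was listed at 0 in both.

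The H3 genes were led by Hist1h3i with 65.2 TPM in replicate 1 and 86.1 in replicate 2. Hist2h3b followed with 31.2 and 44.2 TPM, and Hist1h3d with 12.03 and 13.27 TPM. All 10 H3 genes with a mean of at least 1 TPM were higher in replicate 2, as were 50% of all mouse genes at that level after centring. Hist1h3f was listed at 0 in replicate 1 and had 1.95 TPM in replicate 2, with intervals that reached up to 0.403 TPM in replicate 1 and started at 1.19 TPM in replicate 2. Hist2h3c1 was listed at 0 in both.

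Hist1h4d (ENSMUSG00000061482.6, chr13:23581598-23582735, plus strand) led the H4 genes with 224 TPM in replicate 1 and 313 in replicate 2. The tables measured it over 393 nt, whereas the M21 transcript has 1138 nt. Its level per length therefore rests on the older gene model. Next came Hist1h4i with 13.1 and 14.9 TPM and Hist1h4n with 7.93 and 10.5 TPM. Hist4h4 had 0.21 and 0.44 TPM, and Hist1h4m, 88.1% of whose windows occur in Hist1h4n, was listed at 0 in both.

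The H1 genes encode linker histones that differ from each other in sequence. Hist1h1e had 41.0 TPM in replicate 1 and 36.7 in replicate 2, Hist1h1c 25.6 and 22.3 TPM, and Hist1h1b 17.8 and 19.3 TPM. The order of these 3 genes was the same in both libraries. Their intervals did not overlap in replicate 1, but in replicate 2 those of Hist1h1c and Hist1h1b did. Hist1h1d lay lower at 2.50 and 2.85 TPM, and Hist1h1a at 0.66 and 1.89 TPM. Hist1h1t, a testis linker histone gene, had 0.07 and 0.06 TPM, from 1 count in each library. As a class H1 was the 1 class whose sum was not higher in replicate 2, at 87.6 and 83.1 TPM.

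HIST1 held 95.7 ± 0.507% of the summed TPM (SD, n = 2), HIST2 3.06 ± 0.289%, HIST3 1.19 ± 0.214% and HIST4 0.00947 ± 0.00377%. By counts HIST3 held 3.92 ± 0.123%. Without the Hist1h2ap pair the HIST1 share was 85.8 ± 0.887%. In HIST2, Hist2h3b was the highest gene. The inverted copies Hist2h2aa1 and Hist2h2aa2 had 17.8 and 23.4 TPM in replicate 1 and 19.6 and 29.9 TPM in replicate 2. Every 100-nt window of Hist2h2aa2 occurs in Hist2h2aa1, and their sum was 45.4 ± 5.85 TPM (SD, n = 2). All windows of Hist2h2aa2 and 88.3% of those of Hist2h2aa1 also occur in Gm20634, a noncoding transcript with its own row at 1.83 and 1.65 TPM, so this sum too depends on how reads were assigned.

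The remaining HIST2 genes were lower. Hist2h2ac had 4.97 TPM in replicate 1 and 7.50 in replicate 2, Hist2h2be 4.53 and 4.39 TPM, and Hist2h3c2 3.01 and 3.46 TPM. Hist2h4 had 3.34 and 9.42 TPM. In HIST3, Hist3h2a had 21.4 and 22.5 TPM, measured over 2146 nt. Hist2h2be, Hist2h4 and Hist1h1b were among the 7 histone genes that share no 100-nt window with any other gene.

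In all, 4 genes were listed at 0 in both libraries: Hist1h2ba, Hist2h2ab, Hist2h3c1 and Hist1h4m. In replicate 1, 3 counts would have given them 0.472, 0.390, 0.0781 and 0.444 TPM. The upper ends of their deposited intervals were higher, at 0.625, 0.855, 0.923 and 3.18 TPM. Of the windows of Hist1h4m and Hist2h3c1 only 11.9% and 0% are their own, so a value of 0 there does not separate the gene from its copies. Hist1h2ad, Hist1h3f and Hist1h4k were listed at 0 in replicate 1 alone, and Hist1h2aa in replicate 2 alone. The rows of 6 histone genes known from germ cells (Hist1h1t, Hist1h2aa, Hist1h2ba, H1foo, H1fnt and Hils1) summed to 0.66 and 0.06 TPM.

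Copies that encode the same protein were summed, with proteins compared by translating the M21 coding sequences. These sums still depend on how reads were assigned, since copies differ in length and reads are shared across proteins as well. All 13 H4 genes encode 1 protein, at 265 TPM in replicate 1 and 371 in replicate 2. The 12 H3 genes encode 2 proteins that differ at 1 of 136 residues. The form of Hist1h3a, Hist1h3g, Hist1h3h and Hist1h3i summed to 72.7 and 102 TPM, and the form of the other 8 genes to 57.3 and 81.6 TPM. Their ratio was 1.27 and 1.24, or 1.26 ± 0.0191 (SD, n = 2). By counts the direction was the opposite, with a ratio of 0.897 and 0.864. Of the windows of Hist1h3i, 53.5% also occur in Hist1h3b and in Hist1h3d, which encode the other form.

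For H2A, 9 of the 18 genes, Hist1h2ap among them, encode 1 protein that carried 96.3 ± 0.382% of the H2a TPM (SD, n = 2). Single-residue variants of it come from Hist1h2ak with 10.1 and 21.7 TPM, from Hist1h2af with 3.42 and 5.68 TPM and from Hist3h2a. Hist2h2aa1 and Hist2h2aa2 share a protein that differs from the main form at 4 of 130 residues. For H2B, the protein of Hist1h2bc, Hist1h2be and Hist1h2bg carried 63.3 ± 11.3% of the class. It differs at 1 of 126 residues from the form made by 6 other genes, which carried 10.5 ± 2.88%. The protein of Hist3h2ba differs from that form at 7 residues and carried 8.25% and 18.3%.

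A nucleosome takes up H2A and H2B in equal number, and H3 and H4 likewise. Summed H2a over summed H2b was 19.1 in replicate 1 and 19.9 in replicate 2, and 2.11 and 2.42 without the Hist1h2ap pair. By counts, not divided by length, it was 11.3 and 12.6. Summed H4 over summed H3 was 2.04 and 2.02, and 1.80 and 1.82 by counts. Levels are per transcript length in the deposited gene models, of which 19 differ in length from M21, and 3 H2b genes had no row.

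Many H2a and H2b genes stand head to head and share the DNA between their starts. Within 500 nt, 12 such pairs were found on opposite strands, with 175 to 305 nt between the annotated ends. By TPM the H2a gene was higher in both libraries in 8 pairs and the H2b gene in 3. By counts, not divided by length, the direction turned for Hist1h2ao and Hist1h2bq, at 15.4 and 16.1 against 39.4 and 19.5 counts. It also turned for Hist2h2ac and Hist2h2be, while the other pairs kept their direction. Among the 8 are the pair of Hist1h2ap and Hist1h2br and the pair of Hist1h2ao and Hist1h2bq, which are near-identical copies. Of the windows of Hist1h2ap 92.2% occur in Hist1h2ao, and of those of Hist1h2bq 94.6% occur in Hist1h2br. These pairs are therefore not independent, and how reads were divided between them was not tested. Hist1h2ap exceeded Hist1h2br by the widest margin, and Hist1h2ae at 119 and 153 TPM stood against Hist1h2bg at 4.60 and 3.72 TPM. The reverse held for Hist1h2ac at 1.33 and 2.88 TPM beside Hist1h2bc at 85.6 and 73.5 TPM. Hist2h2ac and Hist2h2be were close in TPM only, at 4.97 and 7.50 TPM against 4.53 and 4.39 TPM. They were measured over 520 and 2620 nt, from 46.7 and 86.1 counts against 255 and 302. By TPM, pairs thus ranged from near equal to far apart.

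**Figure D3:**
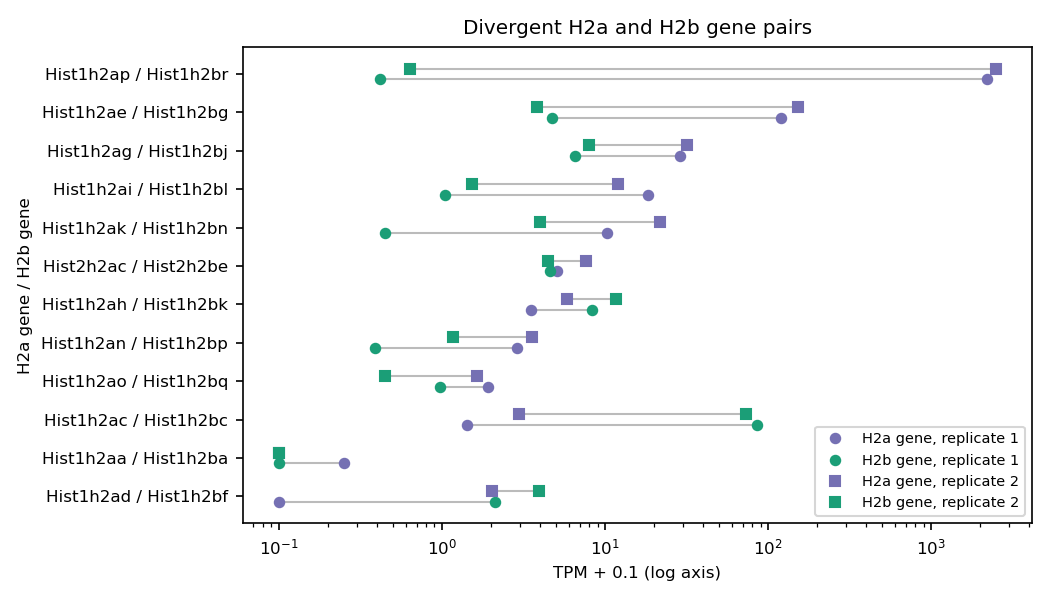
TPM + 0.1 (log axis) of the 12 H2a and H2b gene pairs that stand head to head, ordered by the H2a level in replicate 1. Circles are replicate 1 and squares replicate 2. The H2a gene lies to the right in both libraries in 8 pairs, and the pair of Hist1h2ac and Hist1h2bc shows the reverse.

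Promoter windows of 300 nt (250 nt before to 50 nt after the start) were found in RefSeq (GRCm38.p6) for 59 of the 64 genes. TATAAA, the core of the TATA box, occurred on either strand in 59.3% of them, against 13.6% of all 32851 windows in the table. CCAAT, the sequence bound by the NF-Y complex, occurred on either strand in 84.7%, against 37.4%. It was present in every matched H1, H2a, H2b and H3 window and in 3 of 12 H4 windows. Windows of a head-to-head pair overlap, so these genes are not independent. The windows of the highest H2a and the highest H4 gene follow, with both motifs in capitals on either strand.
Hist1h2ap promoter, chr13:21833426-21833725, minus strand: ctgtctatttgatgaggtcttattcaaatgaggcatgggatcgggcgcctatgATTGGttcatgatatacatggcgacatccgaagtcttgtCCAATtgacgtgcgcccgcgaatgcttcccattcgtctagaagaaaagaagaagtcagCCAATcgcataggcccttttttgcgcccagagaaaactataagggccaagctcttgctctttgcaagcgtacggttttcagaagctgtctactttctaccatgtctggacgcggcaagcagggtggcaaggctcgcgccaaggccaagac
Hist1h4d promoter, chr13:23581318-23581617, plus strand: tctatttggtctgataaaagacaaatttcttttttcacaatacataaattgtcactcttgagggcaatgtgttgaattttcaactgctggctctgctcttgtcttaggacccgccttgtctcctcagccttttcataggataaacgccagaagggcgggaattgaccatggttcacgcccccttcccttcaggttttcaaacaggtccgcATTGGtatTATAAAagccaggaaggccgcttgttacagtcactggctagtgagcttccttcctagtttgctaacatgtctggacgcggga

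The Hist1h2ap window held 3 CCAAT matches and no TATAAA, and the Hist1h4d window 1 of each. The window of Hist1h2ao shares 200 nt with that of Hist1h2ap without a mismatch, beginning at position 1 of the Hist1h2ap window and position 101 of the Hist1h2ao window. This shared stretch runs to the end of the Hist1h2ao window, and beyond it these 2 windows could not be compared. The near-identical pair was therefore alike in this stretch, in the transcript and in the 12-adenine run, while the tables listed 2350 TPM for one and 1.69 TPM for the other as means.

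The labels list the manual of the SMARTer Ultra Low RNA Kit among the protocols, a kit that primes first-strand cDNA with oligo(dT). Which library steps were applied is not given in the sources used here. Across the 40 genes with a stem-loop, the longest adenine run between stop codon and stem-loop and the mean TPM had a Spearman rho of 0.21, and also 0.21 over the 38 without the Hist1h2ap pair. These points share libraries and, for copies, sequence. The part of such runs in the levels was not tested. A run of at least 12 adenines occurred anywhere in the transcript of 3 of the 64 histone genes (4.69%), and in at least 1 transcript of 12.6% of all protein-coding genes.

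Between the 2 pools the histone genes leaned toward replicate 2. Differences are the log2 of replicate 2 over replicate 1 on TPM + 0.1, centred on the median of the 15571 mouse genes with a mean of at least 1 TPM. Of the 49 histone genes at that level, 41 were higher in replicate 2 and 8 in replicate 1, against 50% of all genes in each direction. Their median was 0.38 (1.30-fold), against 0 over all genes by construction. Intervals of the 2 libraries were separate with replicate 2 higher for 14 of the 49 (28.6%), against 9.63% of all genes. They were separate with replicate 1 higher for 1 of the 49, Hist1h2bc, against 13.6% of all genes.

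By class the median log2 was 0.57 over 10 H3 genes, 0.41 over 8 H4 genes, 0.37 over 15 H2a genes, 0.30 over 11 H2b genes and 0.14 over 5 H1 genes. It was 0.39 over 40 HIST1 genes and 0.37 over 7 HIST2 genes. The lean was smaller among genes with narrow intervals. Over the 22 genes whose interval spanned at most 2-fold in both libraries the median was 0.21, and 17 of 22 were higher in replicate 2. Short mRNAs other than histones also leaned toward replicate 2. Over 277 other protein-coding genes under 600 nt the median was 0.09, 63.2% were higher in replicate 2, and 28.5% had separate intervals with replicate 2 higher. Over the 34 histone genes under 600 nt the median was 0.42, 91.2% were higher in replicate 2, and 26.5% had such separate intervals. These short sets differed in depth, with median counts of 65.1 for the histone genes and 824.5 for the others. At a mean count of 10 to 100, 19.2% of 26 histone genes and 2.11% of 1750 other mouse genes had such separate intervals. The difference between these sets was not tested. The part of length, of depth and of the muscle and liver content of the pools in this lean was not tested.

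**Figure D4:**
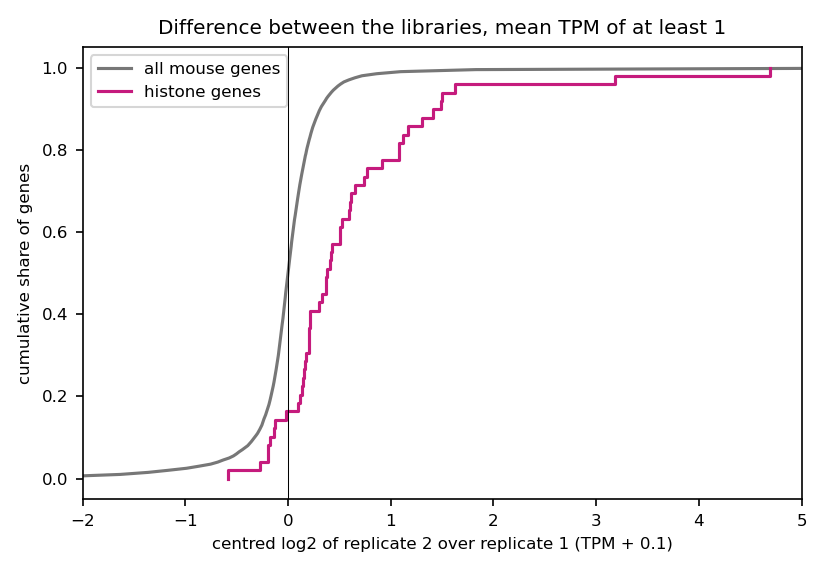
Cumulative share of genes (vertical axis) against the centred log2 of replicate 2 over replicate 1 on TPM + 0.1 (horizontal axis), for the 49 histone genes and all 15571 mouse genes with a mean of at least 1 TPM. The histone line lies to the right of the line for all genes, with a median of 0.38 against 0. The last histone step, at 4.69, is Hist1h4k, listed at 0 in replicate 1.

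Over 2-fold, 11 of the 49 genes were higher in replicate 2 and 0 in replicate 1, against 1.16% and 2.47% of all genes. The 11 were of every class. Hist2h4 had 3.34 TPM in replicate 1 and 9.42 in replicate 2, a 2.82-fold difference from 114 and 393 counts. Its intervals of 2.69 to 3.89 and 8.32 to 10.1 TPM did not overlap, and none of its windows is shared. Hist3h2ba had 10.7 and 26.1 TPM, a 2.45-fold difference from 123 and 366 counts, with 95.1% of its windows its own. Hist1h2ak was higher by 2.15-fold, from 66.4 and 174 counts. These 3 genes rested on the most counts of the 11, and their intervals were narrow.

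The other 8 had fewer counts. Hist1h3b had 2.92 TPM in replicate 1 and 8.32 in replicate 2, Hist1h3a 2.56 and 5.80 TPM, and Hist1h3e 1.65 and 3.55 TPM, each with separate intervals. Hist1h1a had 0.66 and 1.89 TPM, from 8 and 28 counts, and Hist1h2bn 0.35 and 3.92 TPM. The intervals of Hist1h2ac, at 1.33 and 2.88 TPM, overlapped. So did those of Hist1h3h, at 1.14 and 3.67 TPM, which were also among the widest of all. Hist1h4k was listed at 0 in replicate 1 and had 2.44 TPM in replicate 2, but its intervals overlapped, reaching up to 1.45 TPM in replicate 1 and starting at 0.788 TPM in replicate 2. Its fold is therefore not given.

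Across the 64 genes the levels of the libraries had a Pearson r of 0.93 on log2(TPM + 0.1), against 0.99 over all 43346 mouse gene rows. These values are across genes, which are not independent replicates, and describe 2 pools. Over mouse genes other than histones with a mean count of 10 to 100, 3.94% were over 2-fold higher in replicate 2 and 6.34% in replicate 1. Among the 26 histone genes at 10 to 100 counts, 7 were over 2-fold higher in replicate 2 and 0 in replicate 1.

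Many of the copies share sequence, and many of their intervals were wide. Of the 64 genes, 57 share at least 1 window of 100 nt with another annotated gene, and 15 have under 25% of their windows to themselves. The width of the deposited interval, as its upper over its lower bound in the wider library, had a median of 3.01 over 31 histone genes at 10 to 100 counts, against 2.63 over other mouse genes at that depth. Of these, 87.1% and 76.0% exceeded 2. At 100 to 1000 counts the median width was 1.44 over 16 histone genes, of which 3 exceeded 2 (18.8%), against 1.31 and 3.23% over other genes. At 1000 counts or more it was 1.12 over 5 histone genes, of which 0 exceeded 2, against 1.11 and 0.169% over other genes. Among the 35 genes of equal length in the tables and M21 with a mean of at least 10 counts, the median width was 3.33 for the 13 with under 25% own windows. It was 2.41 for the 13 in between and 1.43 for the 9 with at least 75%. These groups also differed in depth, with a median of the mean counts of 76.5, 65.2 and 244 in that order. The part of depth in these widths was not tested. The Spearman rho of own windows with width was -0.52 over these 35.

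**Figure D5:**
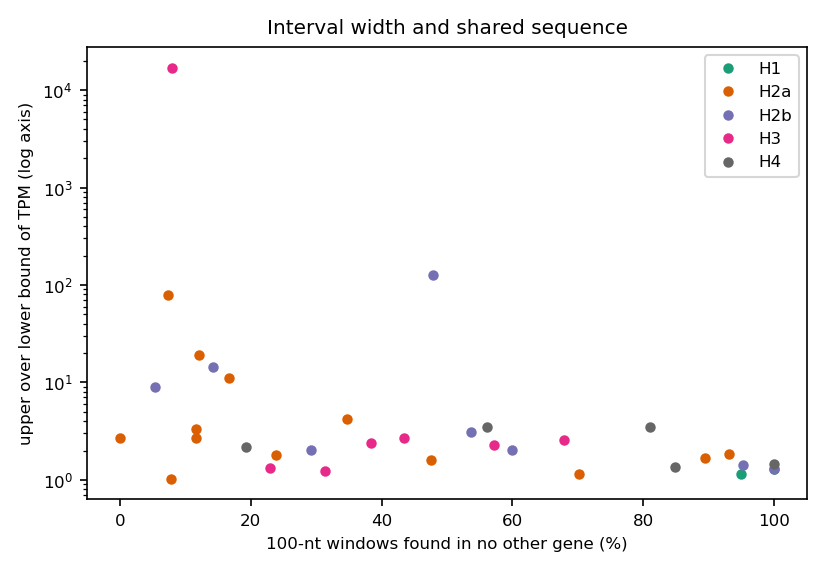
Upper over lower bound of the deposited TPM interval in the wider library (log axis) against the percent of 100-nt windows found in no other gene, for the 35 histone genes of equal length in the tables and M21 with a mean of at least 10 counts. Colours mark the class. Widths above 5 lie at low shares of own windows, apart from Hist1h2bn at 47.9%, and Hist1h2ap lies near 1 at a share of 7.83%.

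The widest intervals at a mean of at least 10 TPM belonged to Hist1h2ai (18.1 TPM in replicate 1 and 11.9 in replicate 2), Hist2h2aa2, Hist2h2aa1, Hist1h2ag and Hist1h2ak. For Hist1h2ai the bounds were 6.90 to 21.8 TPM in replicate 1 and 5.47 to 18.2 TPM in replicate 2. It shares 81.3% of its windows with Hist1h2ad and 78.9% with Hist1h2aj, an annotated pseudogene that was listed at 0 and 7.32 TPM. The values of these 2 rows moved in opposite directions between the libraries. How reads were divided between them was not tested.

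Overlapping annotation touches other members. Hist1h2be overlaps Hist1h1e on the same strand, and 17 genes have an M21 miRNA gene on the opposite strand that has no row. Whether counting used the strand is not given in the sources used here. Of the 4 genes with several annotated transcripts, Hist1h2be split into 2 transcripts with 73.4% and 26.6% of its TPM in replicate 1 and 74.7% and 25.3% in replicate 2. Hist1h2bq gave its second transcript 26.5% in replicate 1 and 0% in replicate 2. Hist1h2br gave its 2197-nt transcript 0% in replicate 1 and 39.7% in replicate 2. Hist1h2bq and Hist1h2br share 94.6% of the windows of the former, at 0.88 and 0.35 TPM and at 0.32 and 0.54 TPM.

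The genes that work with histone mRNA and protein were present and leaned little between the libraries. Of 20 genes for cutting the histone pre-mRNA, 11 were higher in replicate 2 and 9 in replicate 1, with a median log2 of 0.01 and 0 over 2-fold. The shared Sm proteins led, with Snrpb at 474 and 440 TPM, Snrpg at 351 and 485 TPM and Snrpe at 345 and 434 TPM. Lowest were Lsm11, a U7-specific Sm-like protein, at 3.39 and 4.55 TPM and Zfp473 at 1.44 and 1.40 TPM. Of 15 genes for histone gene transcription, 8 were higher in replicate 2 and 7 in replicate 1. Cdk2 had 87.2 and 82.9 TPM, Nfyc, a subunit of the CCAAT-binding complex, 80.1 and 76.4 TPM, and the cyclin gene Ccne1 52.7 and 45.9 TPM. E2f3 at 7.63 and 8.53 TPM and Pou2f1 at 6.89 and 7.78 TPM were lowest.

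Of 12 genes for histone mRNA decay, 7 were higher in replicate 2 and 5 in replicate 1, with a median log2 of 0.02. Slbp, the stem-loop binding protein, had 176 and 173 TPM, Pnrc2 135 and 132 TPM and Exosc10 70.7 and 67.8 TPM. The RNA helicase gene Upf1 had 11.4 and 13.4 TPM and the decapping enzyme gene Dcp2 4.04 and 4.80 TPM. Of 24 histone chaperone genes, 16 were higher in replicate 2 and 8 in replicate 1, with a median log2 of 0.06. Npm1 led with 597 and 737 TPM, followed by Rbbp7 with 420 and 382 TPM and Rbbp4 with 275 and 276 TPM. Hira had 7.82 and 8.47 TPM and Cdan1 4.04 and 5.11 TPM.

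Of 24 genes of S phase, 12 were higher in each library, with a median log2 of -0.0015 and 0 over 2-fold. Pcna, the sliding clamp of DNA polymerase, had 173 and 172 TPM, Tyms 154 and 162 TPM and the helicase subunit gene Mcm6 153 and 153 TPM. Pola1, the catalytic subunit gene of the polymerase that starts new strands, had 11.3 and 13.8 TPM. Beside this list, the histone genes had a median log2 of 0.38. The difference between the lists was not tested.

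The 13 replication-independent histone variants summed to 6400 TPM in replicate 1 and 6463 in replicate 2, against 3088 and 3625 TPM for the 64 replication-dependent genes. H3f3a had 2135 and 2099 TPM, H3f3b 1393 and 1415 TPM and H2afz 969 and 1013 TPM, while H1fx had 21.4 and 21.7 TPM and H1foo 0.09 and 0 TPM. Of the 12 with a mean of at least 1 TPM, 9 were higher in replicate 2 and 3 in replicate 1, with a median log2 of 0.04. H3f3a and H3f3b, which encode the H3 replacement variant, each exceeded in both libraries the sum of all 12 replication-dependent H3 genes, at 130 and 183 TPM. Their mRNAs are polyadenylated, whereas those of the replication-dependent genes normally are not, and the library steps applied are not given. Whether both kinds of mRNA were captured alike was not tested, so these comparisons describe listed TPM only.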

How the data were processed

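Per the file headers, the authors deposited a gene table and a transcript table for each library with expected counts, TPM, FPKM, a posterior mean TPM with an interval, and, per transcript, the percent of its gene. The deposited records name assembly mm10 and GENCODE M4, and no source used here gives the aligner, the counter or the level of the interval. Deposited percent values were used as given, deposited FPKM values enter no result, and rows with no mouse gene identifier stayed out of comparisons.

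Gene identifiers were matched to GENCODE M21 without their version. Sums, shares and differences were computed with Python 3.11.15 and pandas 2.3.3. Differences used TPM + 0.1, centred on the median of genes with a mean of at least 1 TPM (a shift of -0.02). edgeR 4.0.16 and DESeq2 1.42.0 gave scaling factors from rounded expected counts, for alternatives only. The labels do not say that the pools share no litter, so the spread may be partly technical. Intervals cover counting and read assignment only, and floors of 3 counts cover counting only.

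The members and lists were chosen with earlier results of these data known. Named are, in each class, the 3 highest and 2 lowest genes by mean TPM, every gene outside HIST1, every gene over 2-fold apart at a mean of at least 1 TPM, the 5 widest intervals at a mean of at least 10 TPM, genes at 0 in both libraries, genes whose second transcript holds at least 10%, and the 3 highest and 2 lowest of each pathway list. A gene that this rule names is not reported here. Hist1h2ao, the head-to-head pairs, genes at 0 in 1 library and genes named for shared sequence were added after their values were seen. Proteins were compared by translating M21 coding sequences, in place of a RefSeq protein table. The difference formula was tried on simulated counts, for genes with a mean of over 100 counts and without reads shared between copies. That trial does not cover genes with fewer counts or copies that share reads.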

Additional observations from a re-analysis of the deposited data

How the results depend on the processing

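Without Hist1h2ap and Hist1h2ao, an alternative chosen after seeing the data, the summed histone TPM was 1005 in place of 3357, and the shares were 8.64% for H1, 30.8% for H2a, 13.7% for H2b, 15.5% for H3, 31.4% for H4 and 85.8% for HIST1. Not divided by length, the sum was 891 CPM, and the shares of counts were 5.44% for H1, 76.15% for H2a, 6.41% for H2b, 4.27% for H3, 7.73% for H4 and 91.6% for HIST1. H3 was then the lowest class, whereas by TPM it was above H1 and H2b. For further values counts were added as an alternative after seeing the data: the HIST3 share was 3.92% in place of 1.19%, H2a over H2b 11.9 in place of 19.5, and H4 over H3 1.81 in place of 2.03. The ratio of the H3 proteins turned, at 0.881 in place of 1.26. With only the 22 genes of narrow intervals, H2a took 80.8%, H2b 3.27% and HIST1 97.1%. Over those genes the median log2 between libraries was 0.21, and 3 were over 2-fold apart. A pseudocount of 1 TPM left 7 genes over 2-fold apart in place of 11. With posterior mean TPM, TMM or DESeq2 scaling, or no filter, the median stayed between 0.38 and 0.46 and the count between 10 and 16. Leaving out each replicate gave a sum of 3088 to 3625 TPM and H2a shares of 78.5% to 80.2%. No paired analysis was possible because there was 1 group. Depth limits the lower genes: 15 of the 64 had a mean under 1 TPM.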
